A study of Homo sapiens with 2 samples.

Results

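The collagen and laminin genes comprise every measured gene for a collagen chain (symbols of the form COL, number, A, number) or a laminin chain (LAMA, LAMB or LAMC and a number). The symbol rule gave 53 genes, 43 collagens and 10 laminins, of 18132 genes represented on the arrays, and 144 of 49395 probe sets. It used no measured value; among the probe sets of a gene the one with the highest mean level over both arrays stood for it. Expression was measured in H1299, an established line of human non-small cell lung carcinoma, on 1 Affymetrix array of cells transfected with a pcDNA3.1 plasmid carrying EGR1 and 1 array of cells transfected with the empty pcDNA3.1 plasmid. Both were transient lipid-mediated transfections, and RNA was taken after 48 hours. The study asked which genes the transcription factor EGR1 regulates in cells whose apoptosis and metastasis were of interest. With 1 array per group no difference has a replicate check or a p-value, and each describes these 2 arrays. In such bulk samples fewer cells expressing a gene and less RNA per cell cannot be told apart.

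Collagens are triple-helical proteins made of chains that are hydroxylated, assembled into trimers in the endoplasmic reticulum, secreted and then cross-linked. Fibrillar collagens form the tensile fibres of connective tissue, and collagen IV forms the network of basement membranes. Laminins are cross-shaped trimers of an alpha, a beta and a gamma chain that polymerise in basement membranes and bind integrins. Epithelial cells of the lung rest on such a membrane, and carcinoma cells that invade have to cross it.

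The values are the deposited log2 levels made with RMA, which removes background, brings arrays to a common scale and combines the probes of each probe set into one value. A difference is the log2 level in the EGR1 array minus that in the empty-vector array. RMA gives no detection call. Dim probe sets were therefore set aside by a floor of 5.22 (log2), the 40th percentile of the mean levels of the whole array, and 12652 genes (69.8%) lay past it. A level past the floor does not by itself establish expression. In this carcinoma line 3 of 6 endothelial genes were past it, VWF, PECAM1 and KDR, at 6.21, 5.73 and 5.32 in the EGR1 array. Probe sets of the same gene differed among themselves with a pooled SD of 0.15 in the log2 difference (7113 genes with several past the floor). This SD mixes probe-level error with any differences between the transcript parts read, and holds no variation between replicate arrays. Of 6 EGR1 probe sets 2 were 13.3-fold and 6.76-fold higher in the EGR1 array. The other 4 were lower, at -0.39 to -0.20 (1.31-fold to 1.15-fold lower). Which part of the transcript each probe set reads was not established. Vimentin (VIM) read 13.66 in the EGR1 array and 13.73 in the empty-vector array, while the epithelial adhesion genes EPCAM and CDH1 were under the floor in both. The keratins of simple epithelia were past it and higher: KRT8 read 9.97 in the EGR1 array and 7.97 in the empty-vector array, and KRT18 read 12.47 in the EGR1 array and 10.70 in the empty-vector array. These are 3.99-fold and 3.39-fold higher, more than any collagen or laminin gene, and KRT19 differed by 0.24. Of 10 fibroblast genes 4 were past the floor, and the median difference of all 10 was 0.03. Those past it were FBN1, FBLN1, ACTA2 and PDGFRB, at 7.24, 7.05, 6.87 and 6.04 in the EGR1 array. DCN, LUM, FAP, POSTN, THY1 and PDGFRA, which mark the fibroblasts that make interstitial collagen, were the 6 under it.

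Collagen and laminin genes differed little between the EGR1 array and the empty-vector array. Of the 53 genes 26 were past the floor (49.1%), 17 collagens and 9 laminins, and no member reached 1.5-fold in either direction. At or beyond 1.2-fold (0.26 on the log2 scale) 5 of the 26 were higher in the EGR1 array, namely COL6A1, COL27A1, COL25A1, COL9A2 and LAMA5, and 1 was lower, LAMA2. These are 19.2% and 3.85% of the 26, beside 7.07% of all genes past the floor that were this much higher and 5.85% that were this much lower. With no floor 8 of the 53 members were higher and 4 lower, beside 8.82% and 6.15% of all genes. At 1.5-fold the shares of all genes were 0.941% higher and 0.229% lower, and at 2-fold 0.348% and 0.00790%. The median difference of the members past the floor was 0.03, beside -0.02 for all genes past the floor. It was 0.06 for the 17 collagens, of which 13 were above 0, and -0.02 for the 9 laminins, of which 4 were above 0; among all genes past the floor 44.6% were above 0. In 16 of the 26 (61.5%) the difference was smaller than the within-gene SD of 0.15, and so it was in 62.5% of all genes past the floor. In 4 of the 26 (15.4%) it was beyond 2 such SDs, beside 9.60% of all genes past the floor.

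**Figure D1:**
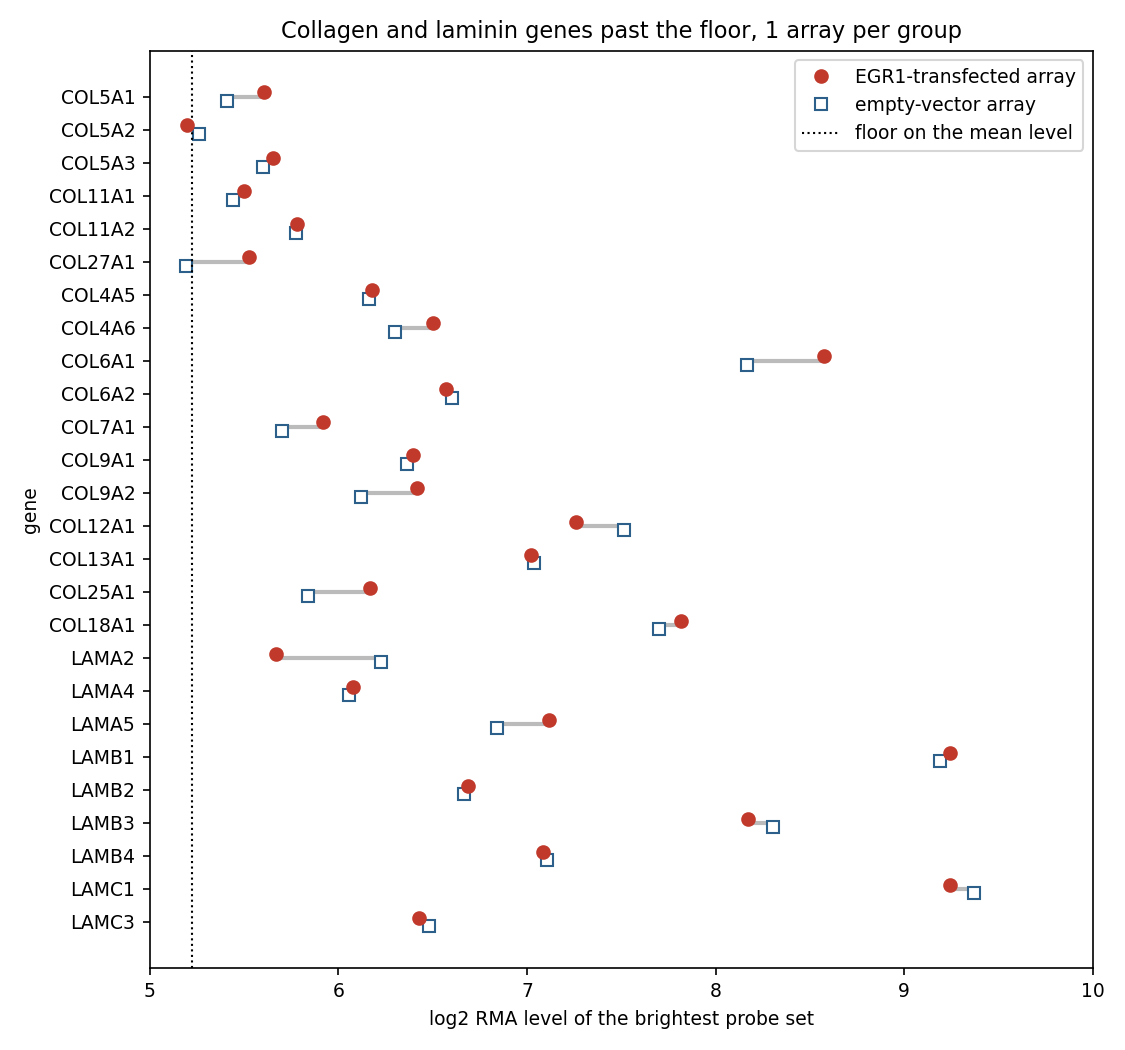
Log2 RMA level of the brightest probe set (horizontal axis) of the 26 collagen and laminin genes past the floor, with the EGR1-transfected array as filled circles and the empty-vector array as open squares, 1 array each. The widest gaps are those of LAMA2, lower in the EGR1 array (-0.56), and COL6A1, higher (0.41); levels of different genes come from different probes and are not comparable.

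The laminin alpha chains, which carry the main cell-binding domains, went different ways. LAMA2, the alpha chain of the laminin of muscle and peripheral nerve, read 5.67 in the EGR1 array and 6.23 in the empty-vector array. That 1.47-fold lower level was the largest absolute difference of any member past the floor, and it rests on 1 probe set. LAMA5, the alpha chain of the laminin of most adult epithelial basement membranes, read 7.11 in the EGR1 array and 6.84 in the empty-vector array, 1.21-fold higher and barely past the threshold. Its other probe set, just under the floor, had the opposite sign (-0.24). LAMA4, found mainly in vessels and muscle, read 6.08 in the EGR1 array and 6.06 in the empty-vector array, and each of its 4 probe sets lay above 0 (0.02 to 0.25). LAMA1, an embryonic chain, was under the floor at 3.30 in the EGR1 array and 3.61 in the empty-vector array.

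The beta and gamma chains lay between -0.13 and 0.05. LAMB1, the beta chain that pairs with most alpha chains, read 9.24 in the EGR1 array and 9.19 in the empty-vector array, with its second probe set at -0.14. LAMB2, a chain of the neuromuscular junction and the kidney filter, read 6.69 in the EGR1 array against 6.67 in the empty-vector array. LAMB3, the beta chain of the laminin that anchors epithelia through hemidesmosomes, read 8.17 in the EGR1 array and 8.31 in the empty-vector array. Both LAMB3 probe sets were slightly lower (-0.13 and -0.11), which is inside the SD between probe sets. LAMC1, the gamma chain of most laminins, read 9.24 in the EGR1 array and 9.37 in the empty-vector array. Its 4 probe sets past the floor ran from -0.12 to 0.02, and another under the floor lay at -0.29. LAMB4 read 7.09 in the EGR1 array and 7.11 in the empty-vector array, with 1 of its 4 probe sets past the floor. LAMC3 read 6.43 in the EGR1 array against 6.48 in the empty-vector array. The trimer of LAMA5, LAMB1 and LAMC1 therefore had differences of 0.27, 0.05 and -0.12 in its 3 chains, and that of LAMA2 with the same partners -0.56, 0.05 and -0.12. By these brightest probe sets the chains of neither trimer shared one direction, but LAMB1 and LAMC1 lay inside the SD between probe sets. Their signs depended on the probe sets used. With all probe sets of a gene averaged, those under the floor included, LAMA2, LAMB1 and LAMC1 were all below 0 (-0.56, -0.04 and -0.10). Without probe sets of suffix _x_at or _s_at, LAMA5, LAMB1 and LAMC1 were all above 0 (0.27, 0.05 and 0.01).

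Of the 6 collagen IV chains, which build the basement membrane network, only COL4A5 and COL4A6 were past the floor. COL4A6 read 6.50 in the EGR1 array and 6.30 in the empty-vector array. COL4A5 read 6.18 in the EGR1 array against 6.16 in the empty-vector array, with 1 of its 3 probe sets past the floor. The other 6 COL4A6 probe sets were all under the floor, so 1 reading past it stands for the gene. Of the 7 probe sets 5 lay below 0, the lowest at -0.26, and their mean was -0.10. COL4A2 lay close under the floor at 5.09 in the EGR1 array and 5.35 in the empty-vector array. Its other probe sets, at 0.21 and 0.22, had the opposite sign to the brightest (-0.26). The brightest COL4A1 probe set read 4.30 in both arrays, identical to the last digit, and its other probe sets lay at 0.14 and 0.23. COL4A3 was under the floor with a difference of 0.22, and the brightest COL4A4 probe set was again identical in both arrays.

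Collagen IV genes lie head to head in pairs, so that both genes of a pair share a promoter region. In the RefSeq table (GRCh38.p14) the start sites of COL4A1 and COL4A2 on chromosome 13 lie 127 bases apart, those of COL4A4 and COL4A3 on chromosome 2 lie 419 bases apart, and the nearest starts of COL4A6 and COL4A5 on chromosome X lie 380 bases apart. The whole sequence between the COL4A1 and COL4A2 starts, chr13:110307158-110307283 on the plus strand, is shown because one stretch serves both genes and holds a match to the EGR1 motif. Capitals mark GCGNGGGCG, the EGR1 consensus with one open base, and the GC box GGGCGG that overlaps it here.
COL4A1-COL4A2: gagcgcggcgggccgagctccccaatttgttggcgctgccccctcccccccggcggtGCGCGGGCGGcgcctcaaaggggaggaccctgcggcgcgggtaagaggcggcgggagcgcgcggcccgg
The stretch is 126 bases long with 80.2% G or C. Neither gene was past the floor, and the brightest COL4A2 probe set alone lay below 0 among the probe sets of the pair.

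COL6A1 was the member past the floor with the largest positive difference. The gene encodes a chain of collagen VI, which forms beaded microfibrils around cells. COL6A1 read 8.57 in the EGR1 array and 8.17 in the empty-vector array, 1.33-fold higher. Its 6 probe sets were all past the floor and all above 0, from 0.04 to 0.41 with a mean of 0.20, so that the size and not the sign depended on the probe set. The partner chain COL6A2, on chromosome 21 like COL6A1, read 6.57 in the EGR1 array and 6.60 in the empty-vector array, and 3 of its 4 probe sets lay below 0. The third chain, COL6A3, was under the floor, its brightest probe set identical in both arrays and another at 0.38. COL6A5 and COL6A6 were under the floor as well. The 3 classical chains of collagen VI thus had differences of 0.41, -0.03 and 0. COL7A1, the collagen of the anchoring fibrils that tie basement membranes to the stroma, read 5.92 in the EGR1 array and 5.70 in the empty-vector array (0.22).

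**Figure D2:**
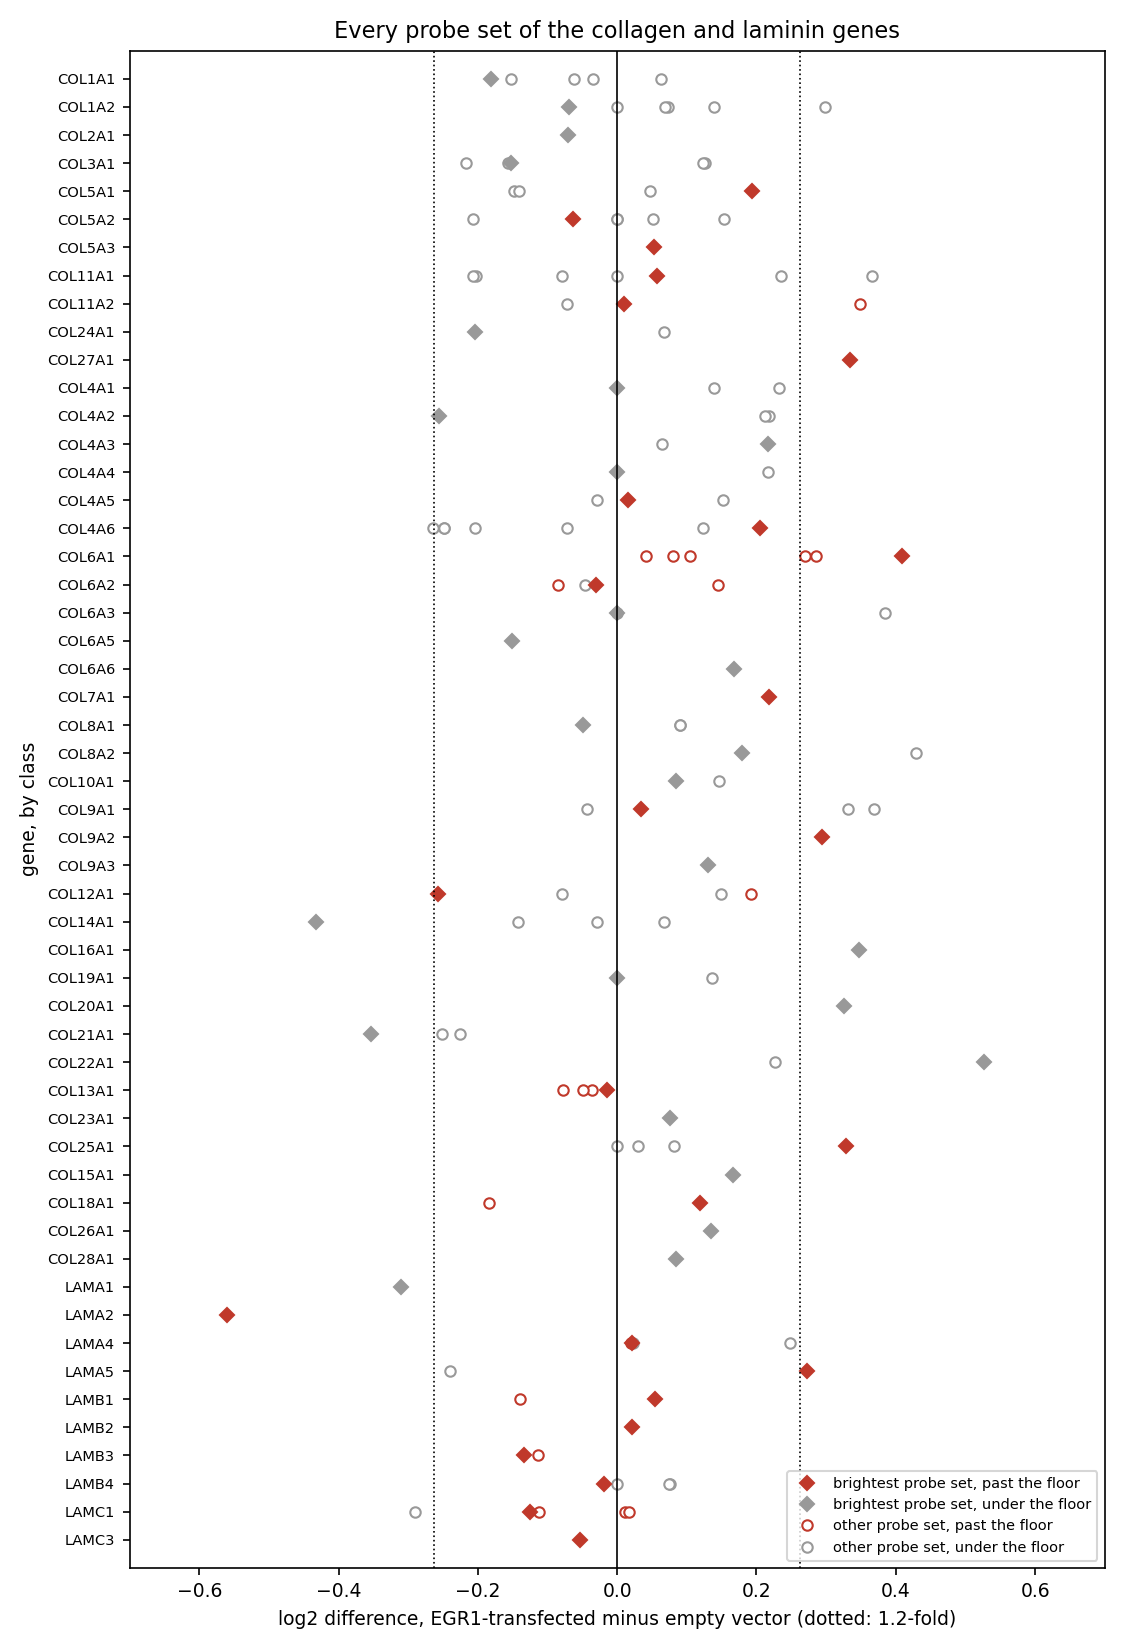
Log2 difference, EGR1-transfected minus empty vector (horizontal axis), of all 144 probe sets of the 53 collagen and laminin genes, grouped by class. Filled diamonds are the brightest probe set of each gene and open circles the others, red past the floor and grey under it; all 6 COL6A1 probe sets lie above 0, whereas those of COL4A6, COL12A1, COL18A1 and LAMA5 lie on both sides.

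Among the fibrillar collagens 6 of 11 were past the floor, and those were minor fibril chains. COL27A1, a fibrillar collagen of cartilage, read 5.53 in the EGR1 array and 5.19 in the empty-vector array, 1.26-fold higher by its 1 probe set. The value in the empty-vector array was itself under the floor. COL5A1, which nucleates collagen I fibrils, read 5.60 in the EGR1 array and 5.41 in the empty-vector array, and its 4 probe sets, 3 of them under the floor, were evenly split between the signs. COL5A2, COL5A3, COL11A1 and COL11A2 had differences of -0.06, 0.05, 0.06 and 0.01. Only 1 of 6 COL5A2 probe sets and 1 of 7 COL11A1 probe sets were past the floor. A second COL11A2 probe set past the floor differed by 0.35. The major interstitial chains were not past the floor, although COL1A1 missed it narrowly, with a mean level of 5.2224 against 5.2236. COL5A2, counted as past it, lay barely above at 5.2298. COL1A1 read 5.13 in the EGR1 array and 5.31 in the empty-vector array, COL1A2 read 4.98 in the EGR1 array against 5.05 in the empty-vector array, and COL3A1 read 2.76 in the EGR1 array against 2.91 in the empty-vector array. Their brightest probe sets were all slightly lower in the EGR1 array, and other probe sets of each lay above 0.

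The FACIT collagens attach to the surface of fibrils, and 3 of 10 were past the floor. COL9A2, a chain of the collagen IX that coats cartilage fibrils, read 6.41 in the EGR1 array and 6.12 in the empty-vector array, 1.23-fold higher by 1 probe set. Its partner COL9A1 read 6.40 in the EGR1 array and 6.36 in the empty-vector array. Only 1 of the 4 COL9A1 probe sets was past the floor, and all 4 ran from -0.04 to 0.37. The third chain COL9A3 was under the floor with a difference of 0.13. COL12A1, which binds collagen I fibrils, read 7.26 in the EGR1 array and 7.52 in the empty-vector array. At 1.19-fold lower it lay just short of the threshold, and its second probe set past the floor had the opposite sign (0.19). The nearest members inside the threshold were LAMA5 at 0.27 and COL9A2 at 0.29, and the nearest outside were COL12A1 at -0.26 and COL7A1 at 0.22.

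Membrane-bound and multiplexin collagens included one more call. COL25A1, a transmembrane collagen first described in amyloid plaques, read 6.17 in the EGR1 array and 5.84 in the empty-vector array, 1.26-fold higher. The suffix _x_at of that probe set marks possible binding to related transcripts, and 3 dimmer probe sets under the floor gave 0 to 0.08. COL13A1, a transmembrane collagen of the neuromuscular junction, read 7.02 in the EGR1 array and 7.04 in the empty-vector array, with all 4 probe sets between -0.08 and -0.02. COL18A1, the precursor of endostatin, read 7.82 in the EGR1 array and 7.70 in the empty-vector array, and its other probe set lay at -0.18. Of the COL25A1, COL13A1 and COL18A1 probe sets, only those of COL13A1 agreed closely.

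The remaining 27 members, 26 collagens and LAMA1, were under the floor. Their differences ran from -0.43 to 0.53 with a median of 0, and 12 were above 0, 11 below and 4 exactly 0. Over all 5480 genes under the floor the median was 0.05, with 2990 above 0, 2007 below and 483 exactly 0. At or beyond 1.2-fold 11.1% of the 27 were higher and 11.1% lower, beside 12.9% and 6.86% of those 5480. Among the 27 members, COL22A1 (5.09 in the EGR1 array, 4.56 in the empty-vector array) and COL16A1 (5.17 in the EGR1 array, 4.83 in the empty-vector array) were the highest. COL14A1 (4.19 in the EGR1 array, 4.63 in the empty-vector array) and COL21A1 (3.98 in the EGR1 array, 4.33 in the empty-vector array) were the lowest. These 4 are FACIT collagens. Of 16 such members with several probe sets, 7 had some on each side of 0.

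More than 1 probe set was available for 35 members. Such probe sets read the same RNA and are not replicates. In 21 of these members, 14 past the floor and 7 under it, the probe sets lay on both sides of 0. Of the 10 members whose probe sets past the floor numbered 2 or more, 5 had such probe sets on both sides. The pooled SD between their probe sets was 0.14, beside 0.15 over all genes. Counted by probe set, 8 of the 45 readings of members past the floor reached 1.2-fold higher (17.8%) and 1 reached 1.2-fold lower (2.22%), beside 6.65% and 8.20% of all probe sets past the floor. The COL6A1 gene alone supplied 3 of the 8.

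Among genes that make and fix collagen chains, LOXL4 and P4HA2 differed by more than any chain past the floor. In the collagen processing list 5 of 31 genes past the floor (16.1%) reached 1.2-fold higher and none reached 1.2-fold lower, beside 7.07% and 5.85% of all genes and 19.2% and 3.85% of the members. In the list 14 lay above 0 and 16 below, and the median was -0.01. LOXL4, a lysyl oxidase-like enzyme of the family that cross-links collagen and elastin, read 6.08 in the EGR1 array and 4.68 in the empty-vector array. Its 2.64-fold higher level rests on an empty-vector value below the floor, and its second probe set differed by 0.47. P4HA2, a catalytic subunit of the prolyl hydroxylase that stabilises the triple helix, read 9.27 in the EGR1 array and 8.66 in the empty-vector array, 1.52-fold higher. P4HA1, the alternative subunit, outside the rule for named genes, differed by -0.05. BMP1, which cleaves the C-propeptide of procollagen, was 1.31-fold higher and SERPINH1, the collagen chaperone of the endoplasmic reticulum, 1.23-fold higher, and all probe sets of both lay above 0. LOX (1.22-fold), outside the rule for named genes and chosen after its values were seen, was the fifth, and its probe sets ran from -0.32 to 0.43.

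Receptors for collagen and laminin went both ways. Of 14 past the floor 4 reached 1.2-fold higher (28.6%) and 1 reached 1.2-fold lower (7.14%), beside 7.07% and 5.85% of all genes. The median was -0.02 for these 14 and 0.08 for all 18 measured. The largest difference was that of ITGA7, a laminin-binding integrin chain of muscle, whose mean level lay under the floor: its 1 probe set read 5.69 in the EGR1 array and 4.17 in the empty-vector array, 2.86-fold higher. SDC4, a syndecan of focal adhesions, read 10.27 in the EGR1 array and 9.73 in the empty-vector array, 1.45-fold higher, with its 3 probe sets from 0.37 to 0.53. ITGB4, the laminin-binding integrin chain of hemidesmosomes, was 1.35-fold higher, although its 8 probe sets ran from -0.04 to 0.43. ITGA6, its alpha partner, was not higher: it read 11.54 in the EGR1 array and 11.79 in the empty-vector array, and all its probe sets lay below 0. DDR1, a receptor tyrosine kinase for collagen, and ITGA3, a laminin-binding integrin chain, were 1.28-fold and 1.27-fold higher, and the DDR1 probe sets ran from -0.14 to 0.65. LAIR1, an inhibitory collagen receptor of leukocytes, was the lower one (-0.31) and had another probe set at 0.39. ITGA6, ITGA7 and LAIR1 were named after their values were seen.

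Partners of laminin and collagen in the matrix held one call in each direction. That is 1 of the 19 past the floor each way (5.26%), beside 7.07% and 5.85% of all genes, and the median was 0.06. NTN1, netrin-1, a secreted guidance factor related to laminin chains, read 5.92 in the EGR1 array and 5.38 in the empty-vector array, 1.45-fold higher. NID2, a nidogen that links laminin to collagen IV, read 6.88 in the EGR1 array and 7.18 in the empty-vector array, 1.22-fold lower. Its other probe set differed by -0.04, and with the mean of both (-0.16) NID2 was no longer past 1.2-fold. FBLN2 (fibulin-2) and TGFBI, a collagen-binding matrix protein, differed by 0.23 and 0.18.

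**Figure D3:**
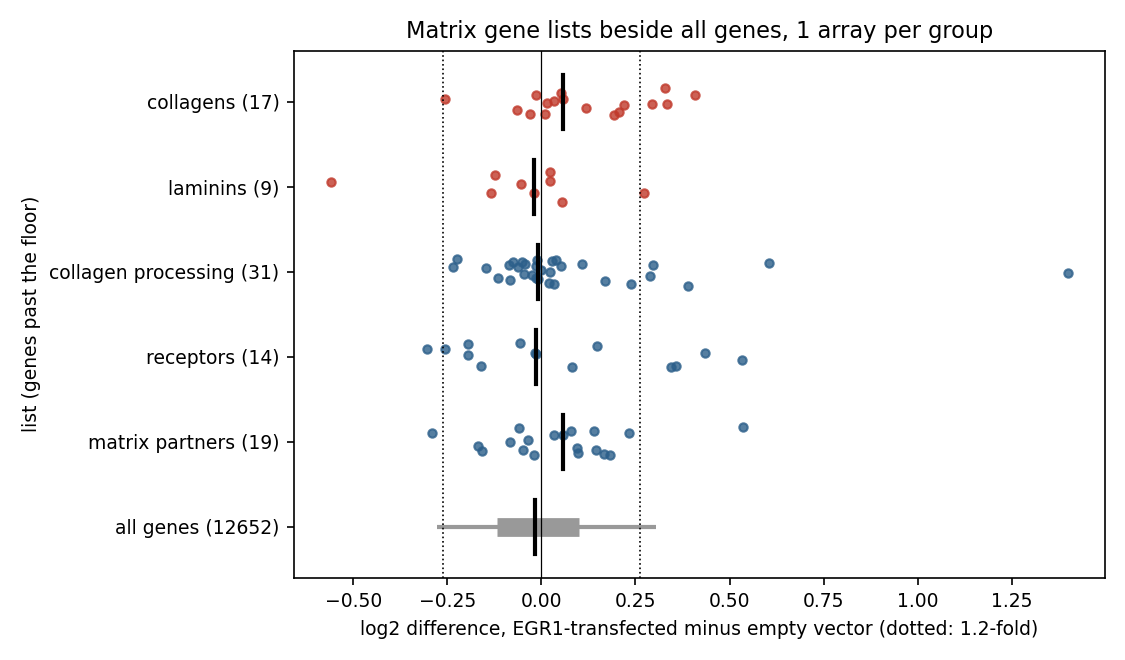
Log2 difference, EGR1-transfected minus empty vector (horizontal axis), of each gene past the floor in the collagen, laminin, processing, receptor and partner lists; vertical bars are medians, dotted lines 1.2-fold. For all 12652 genes the thin line spans the 5th to 95th percentile (-0.28 to 0.31) and the thick line the middle quartiles; LOXL4 at 1.40 is the highest and LAMA2 at -0.56 the lowest of the listed genes.

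Promoter windows of RefSeq (GRCh38.p14, 250 bases before to 50 after each start) were found for 39 of the 53 members. The motif GCGNGGGCG, searched on both strands, was present in 7 of the 39 (17.9%), beside 11.2% of all 27305 genes with a window. The GC box GGGCGG, which GCGNGGGCG can overlap, was present in 26 (66.7%), beside 48.3% of those 27305. The 27305 were not limited to genes on the arrays, and a gene counted when any of its windows matched. Member windows had a median of 63.3% G or C and all windows 58.7%. The 7 genes with the first motif were COL4A1, COL4A2, COL6A2, COL11A1, COL23A1, COL26A1 and LAMC1. COL11A1, COL6A2 and LAMC1 were past the floor, with differences of 0.06, -0.03 and -0.12. A match describes letters and is no evidence of binding.

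For the 5 members past 1.2-fold that had a window, lower and higher alike, the 250 bases before the start are shown to set both directions side by side. They are LAMA2 (chr6:128882888-128883137, plus strand), the one that was lower, and LAMA5 (chr20:62367313-62367562, minus strand), COL9A2 (chr1:40317287-40317536, minus strand), COL25A1 (chr4:109302659-109302908, minus strand) and COL27A1 (chr9:114155287-114155536, plus strand), which were higher. Capitals mark GGGCGG on either strand; GCGNGGGCG occurs in none of these 5 stretches.
LAMA2: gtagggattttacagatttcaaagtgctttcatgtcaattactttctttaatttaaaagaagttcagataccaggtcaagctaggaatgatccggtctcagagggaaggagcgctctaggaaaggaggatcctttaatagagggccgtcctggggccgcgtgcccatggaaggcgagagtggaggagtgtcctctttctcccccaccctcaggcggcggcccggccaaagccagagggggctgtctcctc
LAMA5: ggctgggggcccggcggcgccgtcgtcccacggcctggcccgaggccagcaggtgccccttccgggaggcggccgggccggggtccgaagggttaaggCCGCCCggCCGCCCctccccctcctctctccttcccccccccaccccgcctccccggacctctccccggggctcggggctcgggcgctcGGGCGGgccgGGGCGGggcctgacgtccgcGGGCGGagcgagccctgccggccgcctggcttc
COL9A2: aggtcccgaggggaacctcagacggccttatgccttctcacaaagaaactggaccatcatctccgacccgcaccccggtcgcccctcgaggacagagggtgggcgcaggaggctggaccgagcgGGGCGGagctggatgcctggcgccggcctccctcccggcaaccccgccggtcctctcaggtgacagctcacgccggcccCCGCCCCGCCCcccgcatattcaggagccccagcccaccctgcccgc
COL25A1: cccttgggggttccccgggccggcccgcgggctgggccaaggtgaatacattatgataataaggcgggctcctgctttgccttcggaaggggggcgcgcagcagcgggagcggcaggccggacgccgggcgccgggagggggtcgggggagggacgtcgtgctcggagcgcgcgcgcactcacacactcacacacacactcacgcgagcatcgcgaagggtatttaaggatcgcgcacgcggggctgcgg
COL27A1: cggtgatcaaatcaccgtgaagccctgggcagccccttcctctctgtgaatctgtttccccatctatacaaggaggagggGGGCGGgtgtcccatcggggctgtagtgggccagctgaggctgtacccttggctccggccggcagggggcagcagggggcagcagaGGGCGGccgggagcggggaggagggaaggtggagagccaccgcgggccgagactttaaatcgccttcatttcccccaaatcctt
LAMA2, with 53.2% G or C, and COL25A1, with 70.0%, hold no GC box here. LAMA5 (82.8% G or C) holds 5, COL9A2 (71.6%) 3 and COL27A1 (64.4%) 2. Over the members past the floor with a window, the GC box was present in 12 of the 16 with a difference above 0. It was present in 4 of the 7 below 0, COL12A1, LAMB3 and LAMC1 among these. The shares by direction over all genes were not computed. In 16 of the 26 members past the floor the difference was smaller than the SD between probe sets. A link of the GC box to direction was not tested. COL6A1 had no window in the table.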

How the data were processed

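Levels were read on 1 Affymetrix array per group. RMA was used by the authors to make the deposited log2 levels, per the submitters' processing notes; its software and settings are not given in the sources used. Probe sets were named by the platform annotation, updated to RefSeq symbols by Entrez ID; 44988 had 1 symbol, 1832 several and 2473 none, and 102 were controls. The brightest probe set stood for a gene (ties: first identifier). No count, coverage or error per probe set exists, so the number of arrays limits the precision, and no test was run. Members were described by their differences, the number at or beyond 1.2-fold and the same over all genes past the floor. Members, lists, floor and fold were chosen with earlier results of these data known. Named were all members past the floor, the 2 highest and 2 lowest under it, and the 4 largest absolute differences past the floor in each of the 3 other lists. Further members under the floor were named to complete a family, after their values were seen. P4HA1, ITGA7, SMOC2, the keratins and the fibroblast and endothelial genes were named beside a result, also after their values were seen. Of 56 collagen and laminin symbols listed, 3 were not analysed here. The gene rule and the lowess alternative (statsmodels 0.14.6, Python 3.11.15) were tested on simulated data. Alternatives changed the probe-set summary, probe-set types, normalization, floor and fold.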

Additional observations from a re-analysis of the deposited data

How the results depend on the processing

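The median differences of the collagen, laminin, processing, receptor and partner genes moved by less than 0.15 under every alternative run. The collagen median stayed above 0 (0.02 to 0.08) and the laminin median below it (-0.05 to -0.004), whereas those of the processing and receptor genes took both signs. The number of members at or beyond 1.2-fold higher, 5 of 26, was 2 when the probe sets of a gene were averaged, 8 with a floor at the 25th percentile or with no floor, 2 with a floor at the 60th percentile, and 0 at 1.5-fold and 2-fold. The number lower, 1, became 2, 4 and 0 with the 25th-percentile floor, no floor and the 60th-percentile floor, and 0 at 1.5-fold and 2-fold. LAMA2, COL27A1 and COL9A2, each with 1 probe set, stayed past 1.2-fold in all 5 alternatives to the probe set and scaling, which for them changed the scaling alone. COL6A1 and COL25A1 stayed past it in 3 and LAMA5 in 4; the lowest values were 0.19 for COL6A1, 0 for COL25A1 and 0.02 for LAMA5. EGR1, lower by its brightest probe set, was 0.89 with the mean of its probe sets. Of 210 values of 43 named genes under alternatives, 188 moved by less than 0.15. Part of that count was fixed in advance. Centring on the median moves every gene by the same small amount, and a gene with 1 probe set cannot change with the probe-set summary. The scalings moved the median of all genes past the floor by under 0.1. No paired analysis was possible because each group held 1 array.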

Other observations

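Many differences recur to the fifth decimal. A difference of the same absolute size was found in 20 or more probe sets for 62 of the 144 member probe sets (43.1%), beside 24.8% of all probe sets. Past the floor this held for 1 of 45 member probe sets (2.22%), an additional LAMB1 probe set, beside 9.51% of all; under the floor it held for 61 of 99 (61.6%), beside 47.7% of all. The size 0.22 of COL4A3, of a second COL4A4 probe set and, with the opposite sign, of a COL3A1 probe set was the same number in 102 probe sets. Identical levels in both arrays were found in 11 member probe sets (7.64%), all of them under the floor, beside 5.29% of all probe sets. None of the 26 brightest probe sets of members past the floor had such a recurring difference. Under the floor, the brightest probe sets of COL21A1 (-0.35, in 29 probe sets) and LAMA1 (-0.31, in 35) were among those that did. Both members count as lower when no floor is set.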
